A study of Mus musculus with 22 samples.

Results

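Lung epithelial cells (ECs) of mice with house dust mite (HDM)-induced allergic airway inflammation were compared between a line lacking the aryl hydrocarbon receptor (AhR-/-) and a line lacking the cytochrome P450 enzyme CYP1B1 (CYP1B1-/-), over all protein-coding genes. The comparison used the 4 libraries labelled AhR-/- and the 4 labelled CYP1B1-/- after HDM, 8 of the 22 libraries of the series. Both lines lack their gene in every cell of the body and had been backcrossed to C57BL/6, the strain of the wildtype (WT) mice, and all HDM groups were sensitized and challenged intranasally with extract of the mite Dermatophagoides farinae. Lungs were digested with dispase behind low-melt agarose, live CD45-EpCAM+ cells were sorted, with a CD31- gate also named by the study, and cDNA was primed from the poly(A) tail with template switching. WT libraries after HDM (n = 4) shared the fit, and 3 AhR-/- and 3 CYP1B1-/- libraries from naive mice gave the same comparison at steady state. The methods describe age- and sex-matched adult mice of both sexes without giving the age or sex of single libraries. The labels do not state whether the replicates were separate mice, so the p-values below measure the spread between these libraries, which may be technical.

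AhR is a ligand-activated transcription factor of the basic helix-loop-helix PAS family that pairs with ARNT and binds xenobiotic response elements (XRE), whose core letters are GCGTG. CYP1A1, CYP1A2 and CYP1B1 are monooxygenases encoded by genes under AhR control, and they break down AhR ligands in turn. In a knockout of the receptor the pathway is interrupted at its start, and in a knockout of CYP1B1 at one of the enzymes it drives.

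The libraries held 10133981 to 17878442 counts in the 2 groups compared. The predicted gene Gm10800 took 0.00819% to 71.9% of all counts in the AhR-/- group and 16.1% to 68.2% in the CYP1B1-/- group, so that the coding counts left without the dominant genes ranged from 1180756 to 16447855. A level of 3 counts, the limit that a count of 0 allows, stood at 0.0742 to 1.09 CPM (counts scaled to library size) in these libraries. The libraries did not form 2 tidy groups. AhR-/- replicates 3 and 4 held 148 and 394 counts of the Y-linked gene Ddx3y, while the other 6 libraries held 0 to 1 and also 0 to 3 of Uty, Eif2s3y and Kdm5d, so the AhR-/- group mixed libraries rich in Y-linked reads with libraries at or near 0 and the CYP1B1-/- libraries were all at or near 0. Xist, an RNA of the inactive X chromosome, stood at 2.18 and 2.39 CPM in AhR-/- replicates 3 and 4 and at 75.8 to 118 CPM in the other 6. These reads have the pattern of male cells in AhR-/- replicates 3 and 4 and of female cells in the other 6, which the labels do not state. Across genes, CYP1B1-/- replicate 2 had a Spearman rho of 0.94 with AhR-/- replicate 2 and of 0.74 with CYP1B1-/- replicate 3, as a description of libraries that also differ in depth. Acp1 and most gene lists are given below with and without AhR-/- replicates 3 and 4. Leaving these libraries out kept 2 AhR-/- libraries, so that setting also has fewer libraries to call genes with. Its shares of all genes with higher and lower values at an unadjusted p under 0.05 were 6.22% and 5.18%. The counts given below for that setting are to be read beside these shares.

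The transcripts of the deleted genes were not lost in the libraries that carry their names. Ahr had 17.3, 9.52, 20.4 and 17.9 CPM in the AhR-/- libraries and 9.14, 5.47, 12.6 and 8.85 CPM in the CYP1B1-/- libraries. The log2 fold change, given throughout as AhR-/- minus CYP1B1-/-, was 0.82 ± 0.29 (SE), and the quasi-likelihood test of edgeR gave it an adjusted p of 0.0889. Counts per gene do not tell which exon was read, so a deletion that leaves a transcript would not show here. Cyp1b1 had 0.99, 1.02, 1.09 and 1.19 CPM in the AhR-/- libraries against 8.26, 11.2, 3.34 and 3.33 CPM in the CYP1B1-/- libraries, and the groups did not overlap. Its log2 fold change was -2.57 ± 0.51 with an adjusted p of 0.0638, and WT mice after HDM stood at 0.567 to 2.04 CPM, near the AhR-/- libraries. The same order was seen at steady state, with log2 fold changes of -2.22 for Cyp1b1 and 0.83 for Ahr. Because neither gene checks its label by loss of its counts, the groups are named below by their labels, and every direction rests on those labels. Cyp1a1 and Cyp1a2 were too low to be tested, with 0 to 3 counts of Cyp1a1 in the AhR-/- libraries and 3 to 6 in the CYP1B1-/- libraries.

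**Figure D1:**
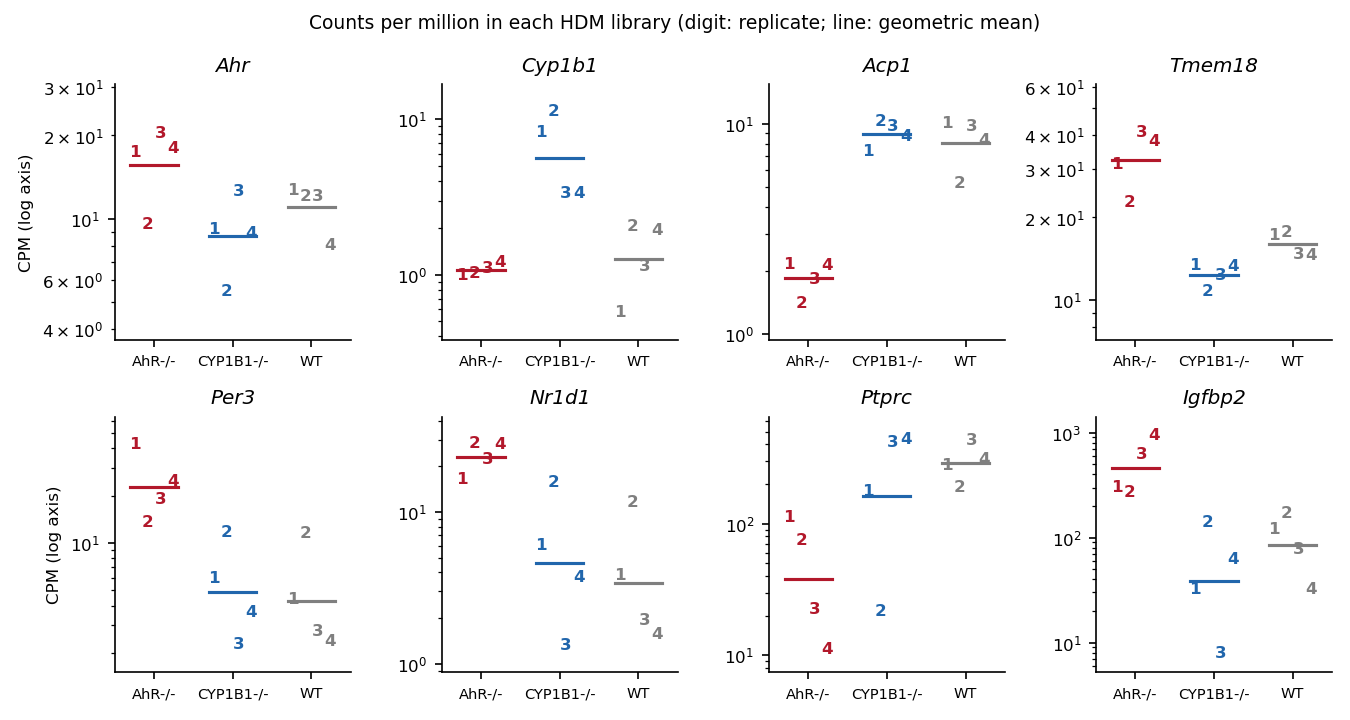
Level of 8 genes in each HDM library, in CPM on a log axis, by genotype; each digit is a replicate and each line the geometric mean of the group. Acp1 and Cyp1b1 stand lower in all 4 AhR-/- libraries than in any CYP1B1-/- library, Tmem18 and Per3 higher, and Ahr and Ptprc overlap between the groups.

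The stretch upstream of Cyp1b1 is shown because the gene is both a target of the receptor and one of the deleted genes. The 250 bases before its RefSeq start lie at chr17:79715062-79715311 on the minus strand (GRCm38.p6), outside the gene, and the capitals mark a match to the XRE core read on the opposite strand.
Cyp1b1: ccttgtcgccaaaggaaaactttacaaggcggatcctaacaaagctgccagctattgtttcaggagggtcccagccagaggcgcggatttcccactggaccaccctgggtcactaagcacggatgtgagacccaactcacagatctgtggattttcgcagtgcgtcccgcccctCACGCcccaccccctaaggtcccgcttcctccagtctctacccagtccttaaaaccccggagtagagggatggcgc
One XRE core lay in this stretch, and neither a circadian E-box (CACGTG) nor a D-box (TTATGTAA) did. Searched on both strands, the XRE core was present in 28.2% of all 32851 RefSeq upstream stretches of this length and in 41.9% of the 14158 that belong to genes tested here.

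Of 14161 protein-coding genes tested, 1 passed an adjusted p of 0.05 (0.00706%), and it was lower in the libraries labelled AhR-/-. This gene was Acp1, a low-molecular-weight protein tyrosine phosphatase. An unadjusted p under 0.05 was reached by 1918 genes with higher values (13.5%) and 2316 with lower values (16.4%) in the AhR-/- libraries, and the median log2 fold change of all genes was -0.10. The 4 AhR-/- libraries lay wholly above the 4 CYP1B1-/- libraries in 611 genes (4.31%) and wholly below them in 459 (3.24%). The second lowest adjusted p, 0.0638, was shared by 804 genes, and 2778 genes lay between the threshold and 0.1. The number of genes past the threshold turned on the test and on single libraries. It was 2458 with edgeR's likelihood ratio test, 2906 with DESeq2 and 4222 with limma voom and sample weights. It was 2683 without AhR-/- replicate 2 and 3098 without CYP1B1-/- replicate 2, but 0 without any other single library of the 2 groups and 0 without AhR-/- replicates 3 and 4, where edgeR's quasi-likelihood test left 1791 genes at an unadjusted p under 0.05.

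**Figure D2:**
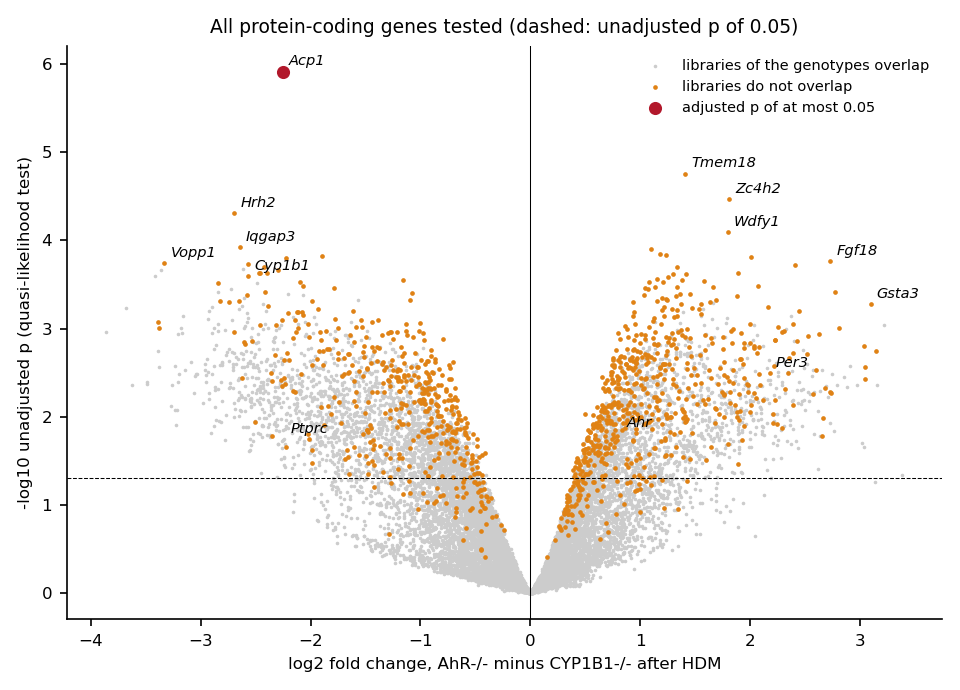
Log2 fold change of AhR-/- minus CYP1B1-/- libraries after HDM (x axis) against -log10 of the unadjusted p (y axis) for 14161 genes. Acp1 is the only gene past an adjusted p of 0.05 in the quasi-likelihood test.

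Acp1 (ENSMUSG00000044573) lies on the minus strand at chr12:30893326-30911589 in GRCm38. It had 2.15, 1.41, 1.82 and 2.12 CPM in the AhR-/- libraries and 7.38, 10.2, 9.74 and 8.66 CPM in the CYP1B1-/- libraries. All 4 AhR-/- libraries stood below every CYP1B1-/- and every WT library, the lowest of which was at 5.22 CPM. The mean was 1.87 ± 0.347 CPM (SD, n = 4) against 9.00 ± 1.26 CPM, a log2 fold change of -2.25 ± 0.27 with an adjusted p of 0.0172. Raw counts were 87, 22, 5 and 16 against 42, 43, 289 and 229, so the depth behind AhR-/- replicate 3 was small. The fit without AhR-/- replicates 3 and 4 gave -2.27, with an adjusted p of 0.438. At steady state Acp1 had 2.68, 3.09 and 5.12 CPM in the AhR-/- libraries and 9.74, 17 and 16.8 CPM in the CYP1B1-/- libraries, a log2 fold change of -2.0 ± 0.28 with an adjusted p of 0.0988. Part of the gene, 14.6% of its exon length, overlaps Alkal2 on the opposite strand, and reads of the 2 genes cannot be told apart without the strand. Among genes named below, such an overlap with another gene on the opposite strand held for 26.8% of the exon length of Ctsl, 19.0% of Bhlhe41, 18.0% of Dbp, 16.4% of Nfkbib and 13.6% of G6pdx. The 250 bases before its RefSeq start, at chr12:30911613-30911862 on the minus strand, are shown because Acp1 was the one gene called.
Acp1: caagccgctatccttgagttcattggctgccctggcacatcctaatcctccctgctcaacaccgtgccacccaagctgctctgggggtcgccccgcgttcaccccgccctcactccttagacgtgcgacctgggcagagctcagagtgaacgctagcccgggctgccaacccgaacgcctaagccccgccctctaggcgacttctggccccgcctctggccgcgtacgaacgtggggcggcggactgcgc
None of the XRE core, the E-box and the D-box occurred in these letters.

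Acp1 lies on the chromosome of the deleted receptor, within 10 Mb of Ahr (chr12:35497974-35535038). Tmem18, which encodes a small nuclear membrane protein, lies in the same window at chr12:30584426-30591215. It had 31.2, 22.7, 40.7 and 37.8 CPM in the AhR-/- libraries and 13.4, 10.7, 12.3 and 13.2 CPM in the CYP1B1-/- libraries, without overlap. Its log2 fold change was 1.41 ± 0.21 with an adjusted p of 0.0638, but 0.32 at steady state. At an unadjusted p under 0.05 the window as a whole did not stand apart, though it held Acp1, the 1 gene called. Of its 54 genes tested, 9 reached an unadjusted p under 0.05 with higher and 10 with lower values, beside 13.5% and 16.4% of all genes, and their median log2 fold change was -0.08. The AhR-/- libraries lay wholly above in 4 of the 54 and wholly below in 1, beside 4.31% and 3.24% of all genes. Around Cyp1b1, 19 of 87 genes were higher and 15 lower at that p, with a median of -0.11. Without AhR-/- replicates 3 and 4 these were 13 and 5 of 91, beside 6.22% and 5.18% of all genes. After Acp1 and Tmem18, the lowest p near Ahr belonged to Dnajb9, a chaperone of the endoplasmic reticulum, and Sypl. Their log2 fold changes were 0.93 and 0.96. The highest log2 fold change near Ahr, 2.65, belonged to the secretory gene Agr2 and ran from 2.14 to 3.96 when 1 library was left out. After Cyp1b1 itself, the lowest p near that gene belonged to Mcfd2, a cargo receptor component, the sodium-calcium exchanger Slc8a1 and the inflammasome sensor Nlrc4, with 1.31, -1.27 and -1.65. DNA of the strain in which a gene was targeted can remain around it after backcrossing. The labels do not give that strain, and its part in these values was not tested.

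Among genes whose libraries did not overlap, the 10 with the lowest p in each direction shared the adjusted p of 0.0638 apart from Acp1. On the higher side were Wdfy1, an adaptor of Toll-like receptor signalling, at 25.7 ± 7.31 against 7.59 ± 2.35 CPM (log2 fold change 1.80), and Fgf18, a growth factor of alveolar development, at 5.00 ± 2.5 against 0.801 ± 0.368 CPM (2.73). Lgmn, a lysosomal cysteine protease, stood at 145 ± 35.6 against 57.6 ± 11.6 CPM (1.33). Tmem18, Zc4h2, Cdk17, Tmed9, Cdc14b, 1190002N15Rik and Fam198b completed this side, with log2 fold changes of 1.09 for Cdk17 to 2.41 for Fam198b. On the lower side, Hrh2, the histamine H2 receptor, had 1.09 ± 0.365 against 7.34 ± 3.58 CPM (-2.70). Nlrp1a, an inflammasome sensor, had 0.875 ± 0.287 against 4.49 ± 2.37 CPM (-2.47). The replication genes Pole, Pola1 and Mcm10 and the cytokinesis scaffold Iqgap3 were also among them, with log2 fold changes of -2.65 for Iqgap3 to -2.23 for Pole. Vopp1 (-3.33), Lfng, a glycosyltransferase that modifies Notch (-2.43), and the predicted gene Gm5431 (-1.89) completed this side.

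The circadian clock pairs transcriptional activators, CLOCK and ARNTL (BMAL1), with repressors they induce, the PER and CRY proteins and the REV-ERB receptors NR1D1 and NR1D2. ARNTL belongs to the same protein family as AhR. Among 19 clock repressors and outputs, 8 reached an unadjusted p under 0.05 with higher values in the AhR-/- libraries and 1 with a lower value, beside 13.5% and 16.4% of all genes. The median log2 fold change of the list was 0.75, against -0.10 for all genes, and none of its members passed the adjusted threshold. The libraries did not overlap in 4 of the 19, beside 4.31% of all genes. Per3, a period protein, had 42.4, 13.6, 18.9 and 24.7 CPM in the AhR-/- libraries and 5.98, 11.7, 2.26 and 3.63 CPM in the CYP1B1-/- libraries, a log2 fold change of 2.18 ± 0.60. Replicates 2 came nearest to each other, as the lowest of the AhR-/- group and the highest of the CYP1B1-/- group.

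Nr1d1 had 16.4, 28.3, 22.2 and 27.8 CPM against 5.98, 15.7, 1.31 and 3.71 CPM (1.93 ± 0.71). Nr1d2 had 72.9, 30.1, 53.5 and 48.0 CPM against 17.4, 27.1, 7.48 and 14.2 CPM (1.65 ± 0.46). In both genes too, CYP1B1-/- replicate 2 was the library nearest to the AhR-/- group. The D-box factors Tef and Dbp had log2 fold changes of 2.10 and 2.33, the repressor Bhlhe41 of 1.58 and Per2 of 1.56, with overlapping libraries and, for Dbp, 2.00 ± 1.69 against 0.437 ± 0.399 CPM. Cry1 went the other way at -1.09 ± 0.31. A further 10 members overlapped and missed an unadjusted p of 0.05, with log2 fold changes of 0.79 for Ciart, 0.75 for Hlf, 0.74 for Cry2, 0.49 for Csnk1e, -0.37 for Csnk1d, -0.66 for Usp2 and -1.08 for Bhlhe40, and with a sign that differed between settings for Per1, Fbxl21 and Wee1. Leaving out 1 library moved Hlf from 0.08 to 1.14, Csnk1e from 0.13 to 0.84, Ciart from 0.42 to 1.33 and Csnk1d from -0.50 to -0.20. Without AhR-/- replicates 3 and 4 the list median was 0.84, again with 8 members higher and 1 lower, and without CYP1B1-/- replicate 2 it was 1.01. Leaving out CYP1B1-/- replicate 3 lowered it to 0.43.

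The other arm of the clock showed no common direction. Of 10 activators and REV-ERB targets tested, 1 was higher and 2 were lower at an unadjusted p under 0.05, near the 13.5% and 16.4% of all genes. Clock had a log2 fold change of 0.96 and Nfil3 and Cdkn1a of -1.24 (-2.04 without AhR-/- replicate 2) and -1.0 at that p, while Arntl stood at -0.44, Npas2 at -0.82 and Rora at 0.87. Rorb, Naprt and Arntl2 changed sign between settings. The median of this list was -0.09, and without AhR-/- replicates 3 and 4 it was -0.05, with none higher and 1 lower at that p. Time of death is not among the labels, so genotype and time of day cannot be told apart in these genes.

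The 250 bases upstream of Per3 are shown as the only stretch of the clock repressors with a D-box, the element bound by the DBP and TEF proteins. They lie at chr4:151044666-151044915 on the minus strand (GRCm38.p6), and capitals mark 2 D-boxes and 1 XRE core read on the opposite strand.
Per3: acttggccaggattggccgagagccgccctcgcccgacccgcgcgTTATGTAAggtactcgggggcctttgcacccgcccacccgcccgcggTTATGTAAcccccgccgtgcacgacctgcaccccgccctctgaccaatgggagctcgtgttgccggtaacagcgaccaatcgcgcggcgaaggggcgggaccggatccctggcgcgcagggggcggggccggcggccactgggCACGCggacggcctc
RefSeq stretches were found for 14 of the 19 clock repressors and outputs, 19 stretches in all. An XRE core was present in 89.5% of them and an E-box in 31.6%, beside 41.9% and 7.71% of the stretches of tested genes. The clock stretches also had a higher median GC content, 67.2% against 58.8%, and the share of such letters that base composition alone would give was not tested. These matches describe letters and not binding.

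**Figure D3:**
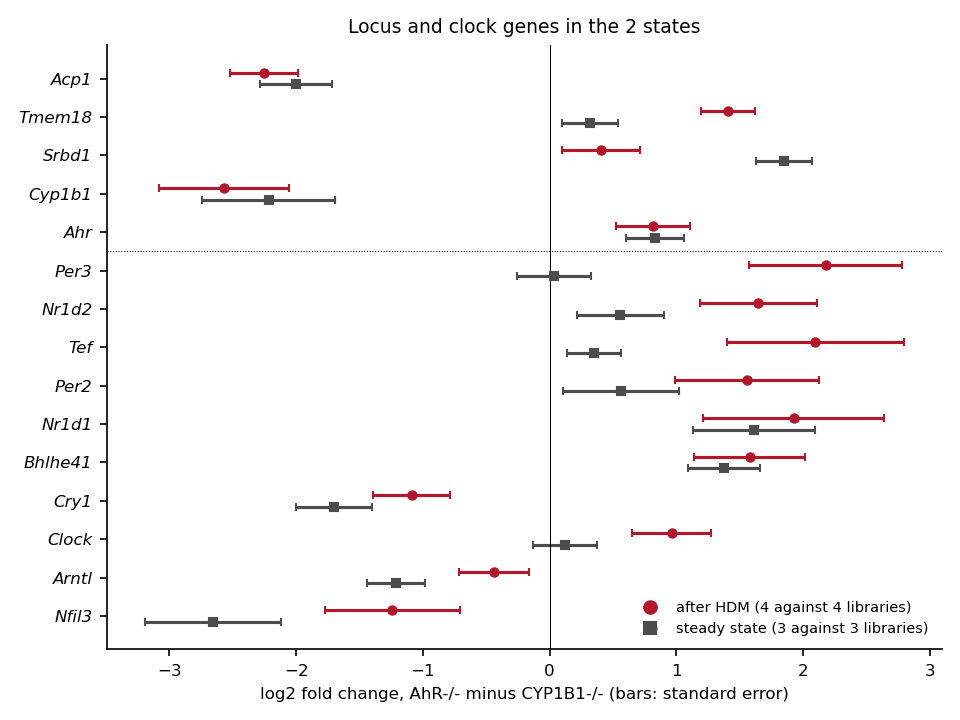
Log2 fold change of AhR-/- minus CYP1B1-/- libraries with its SE after HDM and at steady state, for 5 genes of the knockout loci and 10 clock genes. Acp1 and Cyp1b1 lie below 0 in both states and Nr1d1 and Bhlhe41 above 0 in both, whereas Per3 stands near 0 at steady state.

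The battery of AhR partners and targets, which also counts Ahr itself, showed no common direction. Of 27 partners and targets of the receptor, 20 could be tested, and 4 reached an unadjusted p under 0.05 with higher and 4 with lower values, beside 13.5% and 16.4% of all genes. Their median log2 fold change was -0.05, with a sign that differed between settings. Besides Cyp1b1, Kyat3, an enzyme of kynurenine breakdown, had a log2 fold change of -1.35, and Hsp90aa1, a subunit of the chaperone that holds the unbound receptor in the cytosol, of 0.57 ± 0.20. Hsp90aa1 had 46.9 to 66.9 CPM in the AhR-/- libraries and 36.9 to 40.2 CPM in the CYP1B1-/- libraries and did not overlap. Ahrr, the repressor induced by AhR, had a log2 fold change of -1.01, with 0 to 12 counts in the AhR-/- libraries and 2 to 37 in the CYP1B1-/- libraries.

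Xenobiotic enzymes outside the classical AhR targets stood higher in the AhR-/- libraries more often than lower. Of 25 phase I and II enzymes tested, 7 had higher and 2 lower values at an unadjusted p under 0.05, beside 13.5% and 16.4% of all genes, the median log2 fold change was 0.89, and none passed the adjusted threshold. The glutathione transferase Gsta3 had 50.3, 17.3, 74.6 and 50.8 CPM against 3.34, 8.80, 1.31 and 9.27 CPM (3.10 ± 0.67). Ephx1, microsomal epoxide hydrolase, had 42.6, 17.1, 59.3 and 49.6 CPM against 5.80, 15.5, 4.04 and 14.7 CPM (2.08 ± 0.52). Gstm2, another glutathione transferase, had a log2 fold change of 2.03 ± 0.51. Gsto1 (0.90) and the retinaldehyde dehydrogenase Aldh1a1 (1.69), named after their values were seen, completed the 5 members that lay wholly above, beside 4.31% of all genes. Ugt1a7c, a UDP-glucuronosyltransferase that shares 54.6% of its exon length with its neighbours in the Ugt1a cluster, went the other way with 2.92 to 3.77 CPM against 2.14 to 15.7 CPM (-1.63 ± 0.46). The list median was 1.02 without AhR-/- replicates 3 and 4, with 7 higher and 1 lower, 0.59 without CYP1B1-/- replicate 3 and 0.29 at steady state. Club cells are rich in such enzymes. The summed level of club, goblet and secretory markers was 1971 to 7320 CPM in the AhR-/- libraries and 297 to 5437 CPM in the CYP1B1-/- libraries, with no marker at 0, and its part in the enzyme levels was not tested.

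Of 25 genes of the antioxidant response driven by NRF2, 4 had higher and 4 lower values at that p, near the 13.5% and 16.4% of all genes, with a median of 0.07. The list had 5 higher and none lower without AhR-/- replicates 3 and 4, with a median of 0.52. The members with the lowest p are given as values. Gclm, a subunit of the enzyme that limits glutathione synthesis, had 11.4 to 15.9 CPM against 3.87 to 8.33 CPM (1.22 ± 0.27) without overlap. Sod1 (0.62) and Srxn1 (0.87) did not overlap either, whereas G6pdx stood at -1.42.

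Leukocyte transcripts were present in all libraries despite the CD45- gate, at levels that differed widely between the libraries. Ptprc, which encodes CD45, had 111, 73.8, 22.2 and 11.1 CPM in the AhR-/- libraries and 175, 21.7, 411 and 432 CPM in the CYP1B1-/- libraries. The summed level of the 25 pan-hematopoietic markers was 230.3 to 1260 CPM in the AhR-/- libraries, 386 to 5877 CPM in the CYP1B1-/- libraries and 2591 to 6049 CPM in WT, and no marker was without counts. Of 24 tested, 22 had lower values in the AhR-/- libraries at an unadjusted p under 0.05, beside 16.4% of all genes, with a median log2 fold change of -2.24, but in none did the libraries separate, because CYP1B1-/- replicate 2 lay within the AhR-/- range. The median was -1.52 without AhR-/- replicates 3 and 4, with 5 of the markers lower at that p, and -2.63 without CYP1B1-/- replicate 2. In bulk libraries, fewer cells of a type and less RNA per cell cannot be told apart.

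Dendritic cell and myeloid genes did not follow one order. Of 32 macrophage, dendritic and granulocyte markers, 11 had lower values and 1 a higher value at an unadjusted p under 0.05, beside 16.4% and 13.5% of all genes, and 8 had a log2 fold change above 0. The median was -0.97, and it was -0.51 without AhR-/- replicates 3 and 4, where 3 were higher and 3 lower, -2.04 without AhR-/- replicate 2 and -0.47 without CYP1B1-/- replicate 3. Their summed level was 227 to 4040 CPM in the AhR-/- group and 784 to 2121 CPM in the CYP1B1-/- group, and AhR-/- replicate 2 held the highest value. Among members with the lowest p, Flt3, a receptor of dendritic cell precursors, had 20.7, 10.4, 1.46 and 2.12 CPM against 96.1, 2.62, 177 and 131 CPM (-3.49 ± 1.00), and Zbtb46, a transcription factor of classical dendritic cells, had a log2 fold change of -2.46. An unadjusted p under 0.05 was reached by 3 of 25 T and NK cell markers and 2 of 19 B and plasma cell markers, in both directions together, beside 29.9% of all genes. Epcam, the marker of the gate, had 111, 141, 54.6 and 64.3 CPM against 166, 119, 209 and 126 CPM. Pecam1, which encodes the CD31 of the gate and marks endothelial cells, was at 1.46 to 6.52 CPM against 2.86 to 9.00 CPM.

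**Figure D4:**
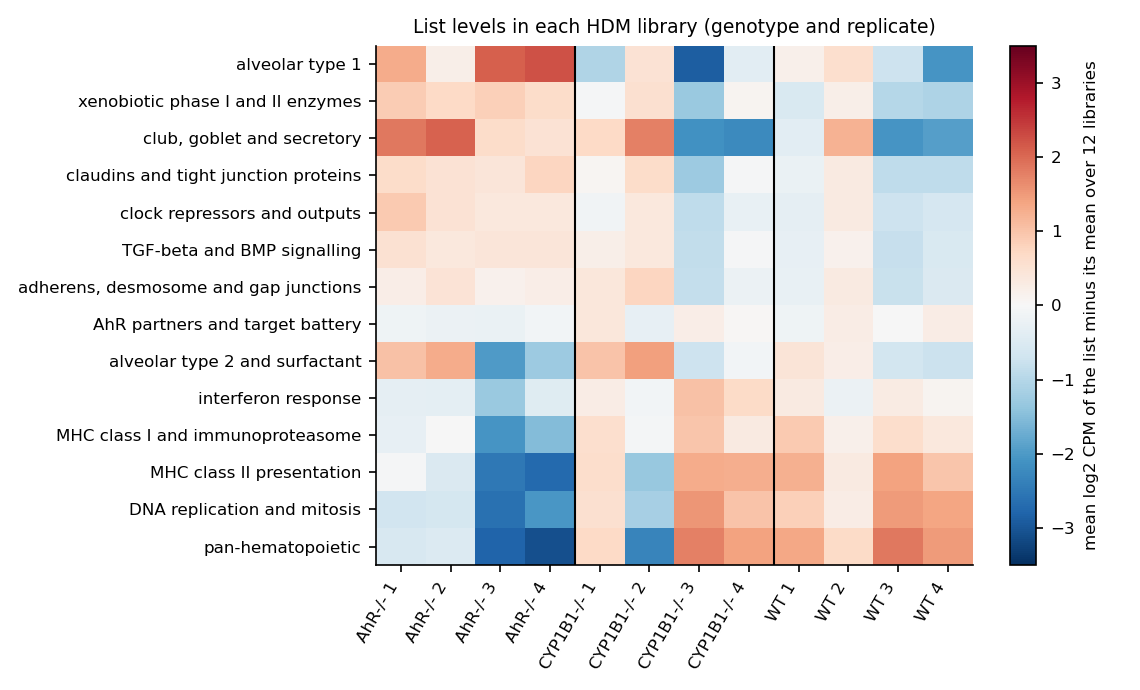
Mean log2 CPM of each gene list in each of the 12 HDM libraries, minus the mean of its row. AhR-/- replicates 3 and 4 hold the lowest pan-hematopoietic levels, and CYP1B1-/- replicate 2 is nearer to AhR-/- replicates 1 and 2 than to its own group.

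Antigen presentation genes stood lower in the AhR-/- libraries together with these leukocyte markers. Of 12 MHC class II presentation genes, 10 had lower values at an unadjusted p under 0.05 and 1 a higher value, beside 16.4% and 13.5% of all genes, with a median log2 fold change of -1.94. Ciita, the class II transactivator, had 31.1, 32.2, 4.37 and 4.77 CPM against 147, 21.9, 258 and 122 CPM (-2.90 ± 0.80). The exception was the lysosomal protease Ctsl, with 76.9 to 135 CPM against 13.6 to 60.2 CPM and no overlap (1.62 ± 0.49). Without AhR-/- replicates 3 and 4 the class II median was -1.15, with 1 gene lower and 1 higher at that p.

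Of 19 MHC class I and immunoproteasome genes, 11 had lower values and none a higher value at an unadjusted p under 0.05, beside 16.4% and 13.5% of all genes, with a median of -1.16. Tap1, a peptide transporter, had 31.2, 46.0, 3.27 and 13.3 CPM against 112, 46.6, 192 and 97.6 CPM (-2.24 ± 0.63), so that replicates 2 of both groups nearly met. H2-T23 (-1.44) did not overlap, and Nlrc5, the class I transactivator, had a log2 fold change of -2.05 with overlap at replicates 2. The class I median was -0.63 without AhR-/- replicates 3 and 4, with 2 genes lower.

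Of 35 interferon response genes, 25 had lower and 2 higher values at an unadjusted p under 0.05, beside 16.4% and 13.5% of all genes, with a median log2 fold change of -1.09. In 8 of the 35 the AhR-/- libraries lay wholly below, beside 3.24% of all genes. Irgm2, an immunity-related GTPase, had 12.3, 15.1, 8 and 13.7 CPM against 25, 27.6, 30.5 and 23 CPM (-1.09 ± 0.24). In this gene CYP1B1-/- replicate 2 stood with its own group. WT libraries after HDM had 10.9 to 17.3 CPM of Irgm2, near the AhR-/- libraries. Its log2 fold changes against WT were -0.20 in AhR-/- and 0.90 in CYP1B1-/-. Irf7, the interferon regulatory factor that amplifies type I interferon, had 5.87, 7.61, 2.55 and 8.62 CPM against 11.8, 13.6, 19.3 and 21 CPM (-1.38 ± 0.35), again without overlap. The chemokine Cxcl9 had 0.247, 1.66, 0 and 1.19 CPM against 8.96, 0.476, 27.5 and 10.7 CPM (-3.86 ± 0.92). Without AhR-/- replicates 3 and 4, 14 interferon genes had lower values at that p and 1 a higher value, beside 5.18% and 6.22% of all genes, with a median of -0.82.

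For sensors and signal transducers of innate immunity, counts at an unadjusted p under 0.05 stand beside 16.4% lower and 13.5% higher of all genes. Of 33 pattern recognition receptors and adaptors 17 had lower and 3 higher values (median -0.97), and without AhR-/- replicates 3 and 4 these were 8 and 0 (median -0.67). Ticam1, the TRIF adaptor, had 2.43, 2.88, 2.91 and 2.39 CPM against 5.80, 4.05, 9.23 and 8.85 CPM (-1.44 ± 0.33) without overlap. Nlrc4 had 0.364 to 1.51 CPM against 2.14 to 5.86 CPM without overlap. Of 28 subunits and inhibitors of NF-kappaB, 20 had lower values and none a higher value (median -1.04), among them Relb (-2.26) and the inhibitor Nfkbib (-0.94), which had 8 to 12.5 CPM against 15.2 to 29.4 CPM. The NF-kappaB list had 5 lower and none higher without AhR-/- replicates 3 and 4 (median -0.58). Of 42 cytokine receptors and members of the JAK-STAT pathway, 22 had lower and 3 higher values (median -0.85), and without AhR-/- replicates 3 and 4 these were 8 and 1 (median -0.56). Stat2 (-1.44) and the interleukin-2 receptor chain Il2ra (-2.12) were examples of the former and Socs5, a suppressor of cytokine signalling (1.12), of the latter. Leukocytes express many of these genes, and the part of the leukocyte signal in them was not tested.

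Epithelial alarmins such as TSLP and interleukin-33 start type 2 allergic responses. Of 13 epithelial alarmins and IL-1 family genes tested, 3 had lower values and none a higher value at an unadjusted p under 0.05, near the 16.4% of all genes that were lower, with a median of -0.19, and without AhR-/- replicates 3 and 4 these were 2 and 2. The lowest-p members are given as single genes. Il1rl1, the receptor of interleukin-33, had 2.43, 2.43, 1.82 and 1.59 CPM against 5.45, 2.62, 8.32 and 23.3 CPM (-2.26 ± 0.66), and -1.41 without CYP1B1-/- replicate 4. Crlf2, a chain of the TSLP receptor, had a log2 fold change of -2.13, and of -3.21 without AhR-/- replicate 2. Of 40 chemokines and receptors, 8 had lower and 6 higher values, near the 16.4% and 13.5% of all genes (median -0.53). This turned to 1 lower and 4 higher without AhR-/- replicates 3 and 4 (median -0.09), and the median ran from -1.33 without AhR-/- replicate 2 to -0.20 without CYP1B1-/- replicate 2. Ccl22 stood at 34.8, 28.9, 8 and 4.37 CPM against 141, 2.86, 345 and 229 CPM (-3.22 ± 1.03). The scavenging receptor Ackr3 had 2.11 to 6.50 CPM against 0.472 to 2.00 CPM without overlap (1.68 ± 0.54).

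DNA replication and mitosis genes lay almost wholly on one side. Of 45 tested, 42 had lower values in the AhR-/- libraries at an unadjusted p under 0.05 and none a higher value, beside 16.4% and 13.5% of all genes, with a median log2 fold change of -1.98. In 6 the AhR-/- libraries lay wholly below, beside 3.24% of all genes. Mcm10, a replication initiation factor, had 1.53, 1.66, 1.09 and 0.795 CPM against 6.15, 2.62, 13.8 and 8.40 CPM (-2.57 ± 0.49). Anln, an actin-binding protein of cytokinesis, had 2.62, 3.77, 1.46 and 1.46 CPM against 9.84, 3.81, 21.9 and 15.2 CPM (-2.38 ± 0.52). CYP1B1-/- replicate 2 was the lowest of its group for both genes and was level with AhR-/- replicate 2 for Anln. Without AhR-/- replicates 3 and 4, 23 members were lower and none higher, with a median of -1.51, and at steady state the median was 0.02. The cells in which these genes were read are not known from bulk libraries, and the list moved with the pan-hematopoietic list, both lowest in AhR-/- replicates 3 and 4.

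**Figure D5:**
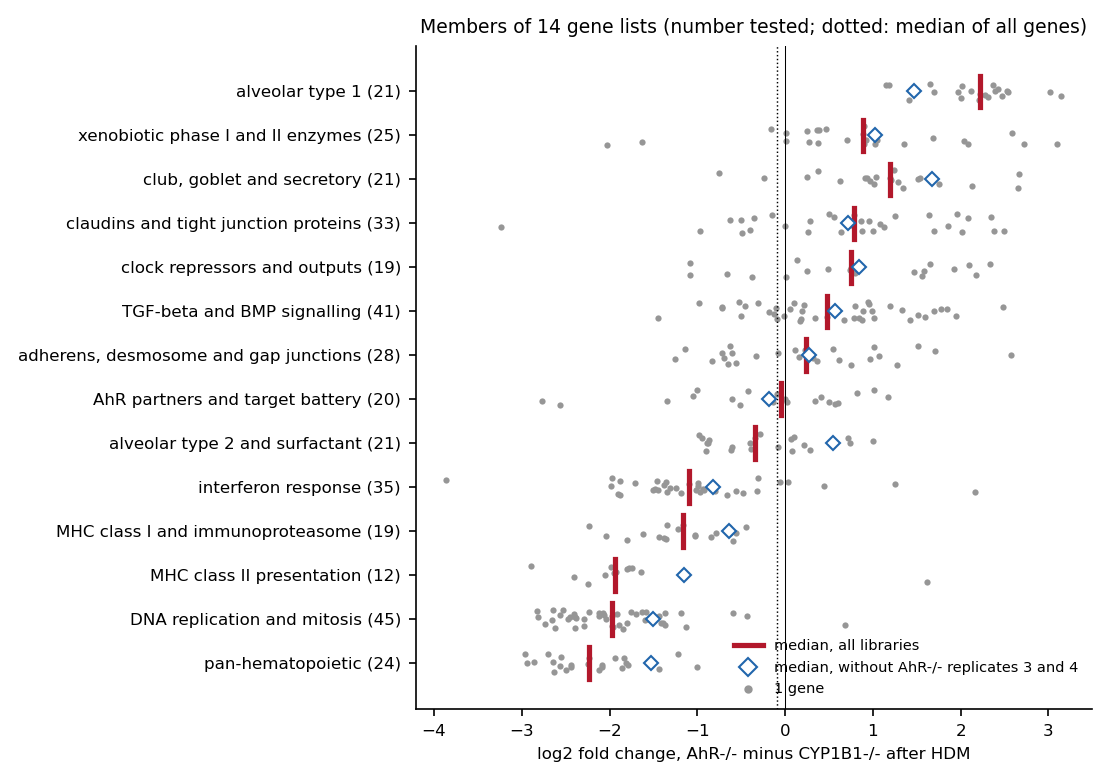
Log2 fold change of AhR-/- minus CYP1B1-/- libraries after HDM for each member (points) of 14 gene lists, with the median of all members (red line) and the median without AhR-/- replicates 3 and 4 (diamond). All alveolar type 1 members lie above 0, and all pan-hematopoietic members and all but 1 replication member lie below 0. The diamonds of these lists lie nearer to 0 than their medians.

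Alveolar type 1 (AT1) cells are the flat cells of gas exchange. All 21 AT1 genes tested had higher values in the AhR-/- libraries at an unadjusted p under 0.05, beside 13.5% of all genes, with log2 fold changes of 1.15 to 3.15 and a median of 2.23. None passed the adjusted threshold, and in 2 the AhR-/- libraries lay wholly above, beside 4.31% of all genes. Igfbp2, an insulin-like growth factor binding protein of mature AT1 cells, had 298, 267, 625 and 946 CPM against 32.2, 139, 7.78 and 62.5 CPM (3.15 ± 0.80). Pdpn, podoplanin, had 218, 142, 394 and 478 CPM against 62.9, 141, 25.1 and 86.4 CPM (1.97 ± 0.57). Replicates 2 of both groups were nearly level for Pdpn. Cav2, a caveolin, overlapped, with 191 to 1829 CPM against 57.9 to 315 CPM (2.53). The summed level of the list was 5737 to 27518 CPM in the AhR-/- libraries and 767 to 7255 CPM in the CYP1B1-/- libraries, and AhR-/- replicates 3 and 4 held its highest values. Without these libraries the median was 1.47, with 1 gene at an unadjusted p under 0.05, and at steady state it was 0.14.

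Alveolar type 2 (AT2) cells make surfactant. None of 21 AT2 genes reached an unadjusted p under 0.05, and their median of -0.34 became 0.55 without AhR-/- replicates 3 and 4. The summed AT2 level was 7230 and 7233 CPM in those 2 libraries and 38407 and 58595 CPM in the other 2 AhR-/- libraries, and it ranged from 6452 to 43523 CPM in the CYP1B1-/- group. Secretory cells of the airway gave a median of 1.20 over 21 genes, 19 of them above 0, with 2 higher at an unadjusted p under 0.05, beside 13.5% of all genes. Bpifa1, an airway surface protein, had 100, 30.2, 77.8 and 25.6 CPM against 8.61, 21.4, 0.876 and 7.45 CPM (2.67 ± 0.89). Agr2, a protein disulphide isomerase needed for mucin that lies within 10 Mb of Ahr at chr12:35992907-36004087, had 21, 16.9, 15.3 and 11.9 CPM against 3.51, 8.33, 0.539 and 0.227 CPM (2.65 ± 0.96). Its log2 fold change ran from 2.14 to 3.96 when 1 library was left out. The secretory median was 1.68 without AhR-/- replicates 3 and 4, with 3 genes higher. Leaving out 1 library moved it from 0.73 without CYP1B1-/- replicate 4 to 2.17 without CYP1B1-/- replicate 2. Motile cilia genes had a median of -0.06 and 1 of 26 at that p.

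Cell contact genes had higher values in the AhR-/- libraries more often than lower. Of 33 claudins and tight junction proteins, 14 were higher and 1 lower at an unadjusted p under 0.05 (median 0.79), beside 13.5% and 16.4% of all genes. Prkci, the atypical protein kinase C of the polarity complex, had 92.1, 32.9, 132 and 110 CPM against 16.2, 30.9, 5.76 and 19.6 CPM (2.35 ± 0.61). Of 28 adherens, desmosome and gap junction genes, 7 were higher and 1 lower (median 0.24), and Gja1, connexin 43, had 201 to 386 CPM against 38.0 to 187 CPM (1.52 ± 0.47). Without AhR-/- replicates 3 and 4 the tight junction median was 0.72, with 4 genes higher and none lower, and the adherens, desmosome and gap junction list also had 4 higher and none lower (median 0.28). The median of the latter list ran from 0.0086 without CYP1B1-/- replicate 3 to 0.53 without CYP1B1-/- replicate 2.

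Of 41 genes of TGF-beta and BMP signalling, 16 were higher and 2 lower at that p (median 0.48), beside 13.5% and 16.4% of all genes. These became 4 and 0 without AhR-/- replicates 3 and 4 (median 0.57), and the median was 0.27 without CYP1B1-/- replicate 3. Smad4, the shared signal transducer, had 19.8, 12.5, 14.2 and 16.7 CPM against 6.85, 9.99, 8.12 and 7.90 CPM (0.96 ± 0.22). The ligand Tgfb2 had 31.3, 27.5, 45.1 and 60.3 CPM against 12.7, 20.5, 3.10 and 10.5 CPM (1.84 ± 0.50). Bmp4 had 17 to 36 CPM against 3.13 to 12.4 CPM (1.52 ± 0.42). In mean log2 CPM, the AT1 level was 7.56 to 9.58 in the AhR-/- libraries and 4.48 to 7.86 in the CYP1B1-/- libraries, and the tight junction level 4.13 to 4.48 and 2.44 to 4.36. The part of AT1 transcripts in the junction and ligand values was not tested.

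Of 27 Notch genes, 2 were higher and 6 lower at an unadjusted p under 0.05, beside 13.5% and 16.4% of all genes, and without AhR-/- replicates 3 and 4 these were 2 and 4. The values of single members are a description of those genes alone. Hes1, a transcriptional target of Notch, had 35.5, 34.3, 52.7 and 37.8 CPM against 8.44, 24.7, 2.96 and 8.13 CPM (1.90 ± 0.57). The receptor Notch2 had 7.82 to 10.2 CPM against 10.9 to 30.6 CPM (-1.15 ± 0.32). Both were without overlap. Sterol and fatty acid synthesis gave 10 lower and 1 higher of 29 at that p (median -0.63), beside the same shares of all genes. Without AhR-/- replicates 3 and 4 none of the 29 was lower or higher at that p (median -0.41). That fit kept 2 AhR-/- libraries, so a part of those replicates and one of fewer libraries cannot be told apart. In the fit with all libraries, Acly, which makes cytosolic acetyl-CoA, had 24.7 to 104 CPM against 120 to 149 CPM (-1.19 ± 0.35) and no overlap. Of 39 oxidative phosphorylation genes none reached that p in either direction, and 5 were higher without AhR-/- replicates 3 and 4.

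Set beside WT mice after HDM, which shared one fit, the 2 knockouts differed in how many genes were called. AhR-/- minus WT gave 3129 genes past an adjusted p of 0.05 (1305 higher and 1824 lower), and CYP1B1-/- minus WT gave 0, with 233 at an unadjusted p under 0.05 in edgeR's quasi-likelihood test. The WT libraries held 0 counts of Ddx3y, like the CYP1B1-/- libraries, whereas AhR-/- replicates 3 and 4 held 148 and 394. Neither contrast with WT was fitted without those replicates. The contrasts share libraries and are given side by side only. For Acp1 the log2 fold change against WT was -2.16 in AhR-/- (adjusted p 0.0261) and 0.10 in CYP1B1-/-. For Per3 these values were 2.33 and 0.16, for Igfbp2 2.42 and -0.72, and for Mcm10 -2.64 and -0.08. Cyp1b1 was the reverse, with -0.34 in AhR-/- and 2.22 in CYP1B1-/-, as was the interferon response gene Irgm2, with -0.20 and 0.90.

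At steady state 1 of 15547 genes passed the threshold (0.00643%). Srbd1, which encodes an RNA-binding domain protein and lies within 10 Mb of Cyp1b1 at chr17:85984665-86145175, had 12.9, 12.8 and 12.2 CPM in the AhR-/- libraries and 2.91, 4.07 and 3.46 CPM in the CYP1B1-/- libraries. It was higher by a log2 fold change of 1.85 ± 0.22 with an adjusted p of 0.0301, and after HDM its log2 fold change was 0.41 ± 0.31. At steady state 323 genes (2.08%) had higher and 334 (2.15%) lower values at an unadjusted p under 0.05, and the libraries did not overlap in 1098 (7.06%) and 773 (4.97%). Among clock genes, Nr1d1 (1.61), Bhlhe41 (1.37), Arntl (-1.21), Cry1 (-1.70) and Nfil3 (-2.66) were among those with such a p at steady state, while Per3 (0.04) was not. Without CYP1B1-/- replicate 2, 7 genes passed at steady state, 4 of them named here, Acp1 with a log2 fold change of -2.22, Srbd1 of 1.74, Arntl of -1.38 and Cry1 of -1.26. The difference between the states was tested as an interaction in 16639 genes, of which 0 passed and 2098 reached an unadjusted p under 0.05 in edgeR's quasi-likelihood test. It gave 16 genes with the likelihood ratio test, 3 of them the Y-linked Ddx3y, Uty and Eif2s3y, 119 with DESeq2 and 2290 with limma voom. All 6 naive libraries compared held Y-linked reads, with 278 to 1698 counts of Ddx3y, whereas after HDM AhR-/- replicates 3 and 4 held 148 and 394 and the other 6 libraries 0 to 1. HDM and naive libraries are also in separate tables. Xist stood at 0.966 to 2.81 CPM in the 6 naive libraries. The effects of HDM, of sex or whatever else goes with Y-linked reads, and of separate processing of the tables therefore cannot be told apart. This holds in the interaction and wherever values of the 2 states are set side by side. Across the 13567 genes tested in both states, the log2 fold changes had a Pearson r of 0.097 and a Spearman rho of 0.126, a description over genes that are not independent replicates.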

How the data were processed

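Counts per gene were deposited by the authors in 2 tables, one for the HDM and one for the naive libraries, without normalization. Per the submitters' processing notes and the study's methods, reads were converted with bcl2fastq 2.19.1, trimmed with bbduk, mapped to mm10 with GSNAP and counted with featureCounts 2.0.0 on the Ensembl release 99 annotation. Strand and the treatment of multi-mapping reads are not given in the sources used here. Of 54373 genes listed, 54147 matched GENCODE M21, the annotation used for symbols and GRCm38 coordinates, and 21793 were protein-coding.

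Protein-coding genes were filtered by filterByExpr (minimum count 10, total 15) over the AhR-/-, CYP1B1-/- and WT libraries of each state, TMM-normalized and fitted in edgeR 4.0.16 (R 4.3.3) with one robust quasi-likelihood model, since all groups share the estimate of the spread. P-values were adjusted by Benjamini-Hochberg over all genes tested, with 0.05 as the threshold. CPM values carry the TMM factors, and mean log2 CPM used a prior count of 1. The interaction was fitted over both tables. Gm10800 shares were compared by a two-sided exact permutation test. Likelihood ratio test, DESeq2 1.42.0, limma 3.58.1 voom, other scalings and filters, a replicate block and leaving out libraries were alternatives. The scripts were tested on simulated data. Upstream stretches are from RefSeq GRCm38.p6.

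The members and gene lists were chosen with earlier results of these data known. The text names the targeted and sort genes, genes past the threshold, the 10 genes with the lowest p in each direction whose libraries did not overlap, up to 4 lowest-p members of each list or locus window, and the clock genes. A few genes of these lists, counted in the list totals, are not reported here. Counts were the only measure taken from the deposited tables, and levels in CPM were derived from them. Intervals of 3 counts cover counting error only. WT libraries served for the shared spread, as a background and for the contrasts of each knockout with WT.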

Additional observations from a re-analysis of the deposited data

Results flagged for a closer look

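Outlying libraries were searched for in each group of 4, over 298 groups of values of genes, lists and libraries (on the log2 scale for CPM). A highest or lowest library stood farther off than Dixon's critical value for 4 libraries in 14 of them (4.7%). Chance gives about 1 in 20 for independent and unselected groups. These groups share their libraries and hold genes picked from these data, so no conclusion is drawn from the share. Among AhR-/- replicates, replicate 2 was low for Cdc14b (12.7 CPM, others 17.4 to 18.2), Clock (14.7 CPM, others 30.2 to 33.4) and Socs5 (7.16 CPM, others 14.7 to 15.6). Replicate 3 was flagged for Lfng (0.364 CPM, others 0.767 to 0.795), Nfkbib (8.003 CPM, others 11.9 to 12.5), Ngfr (0 CPM, others 0.470 to 0.703) and the interferon response list (mean log2 CPM 1.95, others 2.83 to 2.95). For Lfng and Ngfr all 4 values lie under the 1.09 CPM that 3 counts make in replicate 3. Its depth therefore cannot show that it was low for these genes. Among CYP1B1-/- replicates, replicate 2 was low for Flt3 (2.62 CPM, others 96.1 to 177) and Pole (2.86 CPM, others 7.07 to 7.82). Replicate 3 was low for Ackr3 (0.472 CPM, others 1.67 to 2.00), Bmp4 (3.13 CPM, others 10.0 to 12.4), Usp2 (2.36 CPM, others 4.22 to 4.65) and the list of keratins and transitional repair genes (mean log2 CPM 4.58, others 5.22 to 5.27). Replicate 4 was low for Sod1 (18.0 CPM, others 23.5 to 24.3).

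The Y-linked gene Ddx3y, which was not among the genes tested after HDM, had 148 and 394 counts in AhR-/- replicates 3 and 4 against 0 to 1 in the other 6 libraries. It was tested in the interaction between the states, where it passed with the likelihood ratio test and not with the quasi-likelihood test. Acp1 and most gene lists are given above with and without these 2 libraries.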

How the results depend on the processing

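Acp1 kept its direction in every setting that tested it, with log2 fold changes of -2.37 to -2.10, but not its side of the threshold: its adjusted p ranged from 1.48e-09 with DESeq2 to 0.438 without AhR-/- replicates 3 and 4, and a minimum of 10 counts in every library removed the gene from the test. The count of genes past the threshold after HDM, 1 in the reported fit, was 2458 with the likelihood ratio test, 2906 with DESeq2, 4222 with limma voom, and 0 without a filter, with 10 counts required in every library, with only the 2 groups compared and without AhR-/- replicates 3 and 4. Beside these zero counts, the quasi-likelihood test gave 3818, 2922, 3539 and 1791 genes with an unadjusted p under 0.05. Leaving out 1 library gave 0 to 3098 genes, 2683 without AhR-/- replicate 2 and 3098 without CYP1B1-/- replicate 2, and 0 also without WT replicate 3 or 4. The cause was not tested. At steady state the count of 1 became 9 with the likelihood ratio test, 14 with DESeq2, 11 with limma voom, 3 with all gene types, 0 with only the 2 groups and 0 to 7 without 1 library, 7 being without CYP1B1-/- replicate 2. The interaction gave 16, 119 and 2290 genes with the same 3 tests. Replicate numbers did not pair the HDM libraries: same-numbered libraries correlated at -0.404 to -0.178 in their deviations, and with the replicate block Wdfy1 passed after HDM (log2 fold change 1.77, adjusted p 0.0318) in place of Acp1 (adjusted p 0.0785), and 0 genes passed at steady state, with 309 at an unadjusted p under 0.05.

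The share of counts on Gm10800 was 45.3% ± 32.0 (SD, n = 4) in the AhR-/- and 43.1% ± 27.1 in the CYP1B1-/- group, a difference of 2.15 points (exact permutation p 0.914, the smallest possible being 0.0286). It reversed to -6.73 and -3.67 without AhR-/- replicate 3 or 4 and to -6.85 and -4.37 without CYP1B1-/- replicate 3 or 4, and ranged from -6.85 to 17.2 without 1 library. Medians of the AhR battery, clock activator, AT2, cilia, T and NK, B cell, endothelial, mesenchymal, NRF2, unfolded protein response, collagen, basal and tuft, keratin, immediate early and oxidative phosphorylation lists and of the window around Cyp1b1 changed sign in some setting, and those of the clock repressor, xenobiotic, interferon, MHC, replication, pan-hematopoietic, AT1, secretory, tight junction and TGF-beta lists in none. The median of all genes ranged from -0.17 to -0.01. Depth limits the values of AhR-/- replicate 3, where 3 counts are 1.09 CPM.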

Other observations

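Several gene groups outside the comparisons above gave values of their own. Among 31 chaperones and genes of the unfolded protein response, 4 had higher and 3 lower values in the AhR-/- libraries at an unadjusted p under 0.05, with a median log2 fold change of -0.05. These shares lie below the 13.5% and 16.4% of all genes, and the 4 members given here are the higher ones, which had the lowest p of the list. Dnajb9, a chaperone of the endoplasmic reticulum, had 91.0, 71.8, 111 and 94.3 CPM against 45.5, 43.1, 50.0 and 54.2 CPM (0.93 ± 0.20), and all AhR-/- libraries stood above the others, CYP1B1-/- replicate 2 included. Eif2ak3, the stress kinase PERK, had 12.1, 8.18, 12.4 and 9.81 CPM against 6.68, 6.19, 5.29 and 6.20 CPM (0.80 ± 0.23), also without overlap. Ddit3, the factor CHOP, and asparagine synthetase Asns overlapped, with log2 fold changes of 1.46 and 1.55.

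The 3 members with the lowest p among collagens, laminins and integrins were integrin chains, which are given as single genes. Itgb5 had a log2 fold change of 2.04 and Itgb1 of 1.05, with 168 to 375 CPM against 101 to 165 CPM and no overlap for Itgb1. Itga5, a chain of the fibronectin receptor, stood at 2.33, 5.75, 1.09 and 1.33 CPM against 13.0, 4.28, 27.8 and 15.3 CPM (-2.43 ± 0.57). Of 36 collagens, laminins and integrins, 14 had higher and 2 lower values at an unadjusted p under 0.05, beside 13.5% and 16.4% of all genes, and without AhR-/- replicates 3 and 4 this became 1 higher and 2 lower. Ngfr had 0.470, 0.703, 0 and 0.663 CPM against 4.75, 1.19, 8.83 and 6.88 CPM (-3.39 ± 0.78). It was counted among the basal, neuroendocrine and tuft cell markers, whose other 10 tested members all missed that p.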
